A study of Homo sapiens with 16 samples.

Results

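Mitochondria keep their own ribosomes, which translate the few respiratory chain subunits encoded in mitochondrial DNA. Each mitochondrial ribosome has a small subunit, which holds the messenger RNA and decodes it, and a large subunit, which joins amino acids. Its RNAs come from the mitochondrial genome, whereas its proteins are encoded in the nucleus, made in the cytosol and imported. Inherited mutations in a number of these genes cause defects of oxidative phosphorylation.

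The genes described here are those whose symbol is MRPL or MRPS followed by a number, with or without A, B or C. The annotation holds 77 such genes, and 74 of them were in the tables of both experiments, among 13475 genes present in both. They were 47 genes named for the large subunit (MRPL) and 27 named for the small subunit (MRPS). MRPL23, MRPL45 and MRPS18B were not analysed here. The rule selects members by name and uses no measured value.

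RNA was sequenced from LN229, an established human glioblastoma cell line, in 16 libraries of 8 groups with 2 libraries each. In the first experiment, untreated cells were kept under the regular condition (DMEM with fetal bovine serum) or the ischemic condition (low glucose, glutamine and serum combined with hypoxia). In the second, cells under each of these conditions received DMSO as the vehicle, VX745, which inhibits p38α, or MK25, which inhibits MK2, a kinase that p38 activates. All libraries thus came from this 1 line, and doses, which the study's methods give for its compounds in general, are not repeated here because the labels state neither doses nor times. The labels do not say whether the 2 libraries of a group came from separate cultures, and the study's general statement on independent experiments does not name the sequencing, so p-values measure the spread between libraries, which may be technical.

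Levels are log2 normalized CPM, that is, read counts scaled to an effective size of each library, which includes a composition factor. Between 20122017 and 37562668 reads per library fell on the listed genes, and the member with the fewest, MRPS24, had 29 reads or more in every library of the first experiment and 66 or more in the second. All 9 markers of a glioblastoma line (VIM and EGFR among them) were listed. Of those of other cell types, 1 of 4 leukocyte, 2 of 3 neuron, 0 of 3 endothelial and 0 of 2 epithelial markers were listed, namely CD68, SYT1 and SNAP25. The defining markers PTPRC, RBFOX3, PECAM1 and EPCAM were not listed. Being listed is no measure of level. In the first experiment VIM was at 11.34 to 12.77 and EGFR at 5.81 to 7.06 log2 CPM. GFAP was at 0.10 to 1.03 there and SOX9 at -2.62 to 0.03. CD68 was at 4.47 to 5.37, SYT1 at 3.69 to 6.31 and SNAP25 at 1.47 to 2.34 in the same libraries. A gene was called at an adjusted p under 0.05 over all genes of the table. In bulk RNA a level is relative to the rest of the library, so that a change in the RNA content per cell cannot be told apart from a change in a part of the cells.

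Upstream sequences of 3 members are shown because these genes represent the opposite ends of the response described below, MRPS12 among the largest falls and MRPS22 and MRPS30 among the rises. Each is the part of the 250 bases before the transcription start that lies outside any annotated exon, from RefSeq (GRCh38.p14), printed 5′ to 3′ on the strand of the gene, which is the plus strand for all 3. That of MRPS12 spans chr19:38930764-38930943, that of MRPS30 chr5:44808778-44808946 and that of MRPS22 chr3:139343744-139343955. Capitals mark the CCAAT box on either strand, which reads ATTGG in reverse, and the ETS motif CCGGAAG on either strand, which reads CTTCCGG in reverse.
MRPS12: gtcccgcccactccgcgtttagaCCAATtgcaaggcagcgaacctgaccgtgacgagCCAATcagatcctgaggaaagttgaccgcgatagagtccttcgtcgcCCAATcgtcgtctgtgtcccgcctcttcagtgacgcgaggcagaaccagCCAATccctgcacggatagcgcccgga
MRPS30: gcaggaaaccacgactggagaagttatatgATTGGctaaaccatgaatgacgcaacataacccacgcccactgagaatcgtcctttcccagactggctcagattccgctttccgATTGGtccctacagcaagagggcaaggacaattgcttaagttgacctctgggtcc
MRPS22: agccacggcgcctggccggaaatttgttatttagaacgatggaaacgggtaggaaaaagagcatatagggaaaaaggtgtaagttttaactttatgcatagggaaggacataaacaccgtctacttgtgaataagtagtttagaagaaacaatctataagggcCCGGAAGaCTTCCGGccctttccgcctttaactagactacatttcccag
The MRPS12 sequence held 4 CCAAT boxes, the MRPS30 sequence held 2, and the MRPS22 sequence held 2 ETS motifs facing each other. The region of MRPS12 lies between its start and that of SARS2, the mitochondrial seryl-tRNA synthetase gene, which is transcribed the other way from 181 bases away.

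Under the ischemic condition most mitochondrial ribosomal protein genes were downregulated in both experiments. In untreated cells 57 of 74 members were lower and 6 were higher in ischemic than in regular culture, and 11 did not pass the test. Of all 13559 genes, 35.2% were called lower and 35.2% were called higher. The median log2 fold change (FC) of the members was -0.48, against -0.01 for all genes. With a fold of at least 1.5 required as well, 30 members were lower and 1 was higher, against 20.2% and 21.3% of all genes. In DMSO-treated cells 45 members were lower and 11 higher, against 35.2% and 34.4% of 14024 genes, with a median of -0.28 against -0.01. At a fold of at least 1.5, 17 members were lower and 0 higher there, against 17.9% and 18.1% of all genes. Scaled to reads on listed genes instead, 60 members were lower and 4 higher in untreated and 52 and 4 in DMSO-treated cells. Of all genes, 4768 were lower and 4772 higher in untreated cells in the deposited scaling and 6072 and 3623 in this other one, and with DMSO 4934 and 4825 became 6879 and 3253. The median of all genes then lay at -0.18 and -0.23, and that of the members at -0.65 and -0.51.

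The summed level of the 74 members showed the same in each library. It was 4514 and 4869 CPM in the 2 regular libraries and 3370 and 3489 CPM in the 2 ischemic libraries of untreated cells. In the second experiment it ranged from 4534 to 5058 CPM over the 6 regular libraries and from 3577 to 4102 CPM over the 6 ischemic ones. Regular and ischemic libraries did not overlap in either experiment. As a share of the reads on listed genes, the members took 0.488% and 0.526% in regular untreated cells and 0.328% and 0.331% in ischemic ones.

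**Figure D1:**
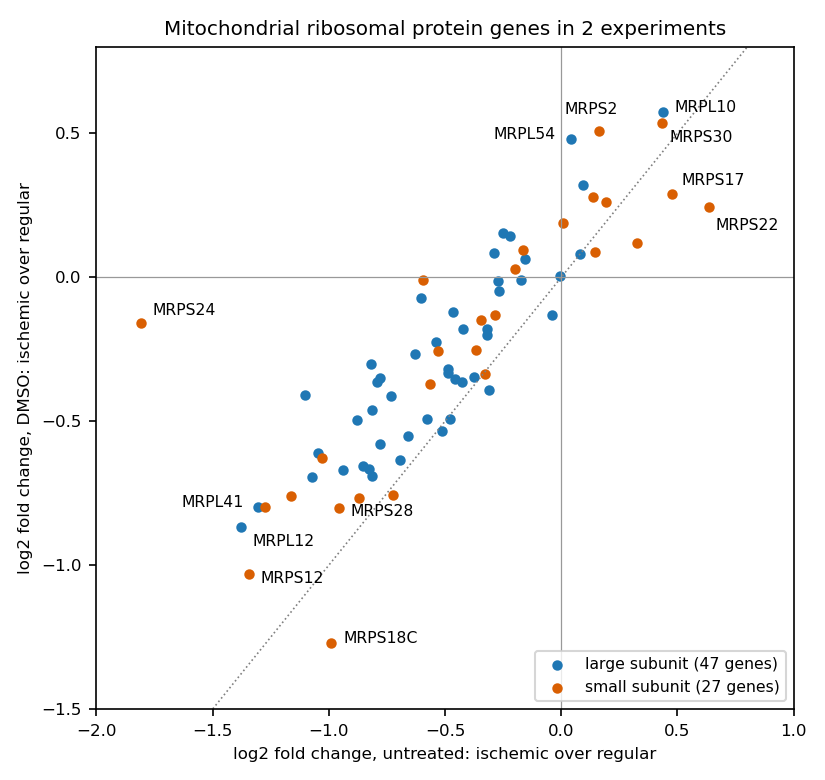
Log2 fold change of ischemic over regular culture for each of the 74 members, in untreated cells (x axis) and in DMSO-treated cells (y axis); each point is 1 gene, blue for MRPL and orange for MRPS, and the dotted line marks equal values. Most points lie in the lower left, MRPL10 (0.44 and 0.58) and MRPS30 (0.44 and 0.54) lie in the upper right, and MRPS24 (-1.81 and -0.16) lies apart.

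The experiments, which share no library, gave similar values gene by gene. Across the 74 members Pearson's r between their log2 fold changes was 0.84 and Spearman's rho 0.89, and across all 13475 shared genes r was 0.90. Genes are not independent replicates, so these describe the tables only. The sign was the same for 67 members, which is 90.5% against 84.2% of all shared genes. MRPL37 was the 1 member called in opposite directions, lower in untreated cells (-0.22) and higher with DMSO (0.14, adjusted p = 0.0492). Its DMSO rise did not hold when scaled to reads on listed genes, at -0.08 (adjusted p = 0.240). Of the members called lower, 45 were called lower in both experiments, which is all 45 of the DMSO comparison and 78.9% of the 57 of the untreated one. The log2 fold change was lower in untreated than in DMSO-treated cells for 63 members. Of all genes, 35.2% were called lower in each experiment. Neither the share of all genes called lower in both nor that with a lower value in untreated cells is given here.

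The 5 largest falls in untreated cells were those of MRPS24, MRPL12, MRPS12, MRPL41 and MRPS34. MRPL12 forms the stalk of the large subunit, to which translation factors bind, and is also known to associate with the mitochondrial RNA polymerase. Its level was 7.66 and 7.57 log2 CPM in regular and 6.26 and 6.22 in ischemic untreated libraries, and 7.61 and 7.56 in regular and 6.60 and 6.84 in ischemic DMSO libraries. Every ischemic library was below every regular one. MRPL12 fell by 1.38 ± 0.07 (SE, adjusted p = 3.85e-09) on the log2 scale in untreated cells. With DMSO it fell by 0.87 ± 0.10 (SE, adjusted p = 4.48e-07). Of the MRPL12 exon bases, 69.5% are shared with ENSG00000262660 on the same strand. MRPS12, the counterpart of the bacterial protein at the decoding centre, read 5.76 and 5.61 in regular and 4.36 and 4.33 in ischemic untreated libraries, and 5.73 and 5.81 against 4.66 and 4.82 with DMSO. Its groups did not overlap either, and it fell by 1.34 ± 0.09 (SE, adjusted p = 4.53e-08) and fell by 1.03 ± 0.10 (SE, adjusted p = 1.12e-07), respectively. MRPL41 and MRPS34, which have no bacterial counterpart, fell by 1.30 ± 0.10 (SE, adjusted p = 2.81e-07) and fell by 1.27 ± 0.09 (SE, adjusted p = 1.14e-07) in untreated cells. With DMSO, MRPL41 fell by 0.80 ± 0.12 (SE, adjusted p = 8.42e-06) and MRPS34 fell by 0.80 ± 0.09 (SE, adjusted p = 3.61e-07). Of the MRPS34 exon bases, 32.6% lie under exons of EME2 on the opposite strand.

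MRPS24, the counterpart of a small subunit protein at the entry of the messenger RNA, differed between experiments in the size of its fall. It was at 2.55 and 2.18 in regular and 0.58 and 0.54 log2 CPM in ischemic untreated libraries, and it fell by 1.81 ± 0.21 (SE, adjusted p = 7.28e-06). With DMSO it was at 2.23 and 1.83 in regular and 1.46 and 2.27 in ischemic libraries, which overlapped, with a log2 fold change of -0.16 ± 0.26 (SE, adjusted p = 0.596). It had the fewest reads of all members, and 90.9% of its exon bases are shared with the readthrough gene URGCP-MRPS24, so that counting could split its reads.

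With DMSO the largest fall was that of MRPS18C, a small subunit protein, from 4.54 and 4.19 in regular to 3.05 and 3.13 log2 CPM in ischemic libraries. MRPS18C fell by 1.27 ± 0.12 (SE, adjusted p = 7.17e-08) there and fell by 0.99 ± 0.15 (SE, adjusted p = 8.12e-05) in untreated cells, in which the 2 ischemic libraries differed from each other (3.73 and 3.19). Of its exon bases, 83.6% lie under exons of ABRAXAS1 on the opposite strand, and no source states that counting used strand. MRPS28, a small subunit protein, fell by 0.80 ± 0.10 (SE, adjusted p = 1.98e-06) with DMSO. Of the MRPS28 exon bases, 56.2% are shared with ENSG00000276418 on the same strand. Without any inhibitor, then, the members with the largest falls came from both subunits.

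A few members rose. MRPL10, which anchors MRPL12 in the stalk, went from 5.89 and 5.81 in regular to 6.23 and 6.35 log2 CPM in ischemic untreated libraries, and from 5.98 and 6.03 to 6.54 and 6.61 with DMSO. It rose by 0.44 ± 0.08 (SE, adjusted p = 2.42e-04) and rose by 0.58 ± 0.06 (SE, adjusted p = 8.37e-08), opposite in sign to its stalk partner MRPL12 in both experiments. MRPS30, a protein found only in mitochondrial ribosomes, went from 5.57 and 5.48 to 5.85 and 6.07 in untreated cells and from 5.60 and 5.63 to 6.06 and 6.25 with DMSO. It rose by 0.44 ± 0.09 (SE, adjusted p = 7.10e-04) and rose by 0.54 ± 0.07 (SE, adjusted p = 3.24e-06), and its ischemic libraries were above its regular ones in both.

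MRPS22, a gene mutated in inherited defects of oxidative phosphorylation, showed the largest rise in untreated cells. It rose by 0.63 ± 0.08 (SE, adjusted p = 1.01e-05), from 5.45 and 5.41 to 6.02 and 6.12 log2 CPM, and with DMSO it rose by 0.24 ± 0.08 (SE, adjusted p = 0.00993). Scaled to reads on listed genes, the rise in untreated cells held at 0.46, whereas MRPS22 was at 0.02 (adjusted p = 0.839) with DMSO. In the deposited scaling MRPS22 was called higher in these 2 comparisons but not in ischemic against regular culture with VX745 or MK25. With MK25 it was at 0.06 (adjusted p = 0.539). Of the MRPS22 exon bases, 26.6% lie under exons of COPB2 on the opposite strand. MRPS17 and MRPS31 rose by 0.48 ± 0.08 (SE, adjusted p = 2.05e-04) and rose by 0.33 ± 0.11 (SE, adjusted p = 0.0146) in untreated cells. Of the 31-base words of the MRPS17 transcript, 38.0% recur elsewhere in the genome, so its value is uncertain where reads could align to more than 1 place. The MRPS31 rise did not hold in that scaling, at 0.16 (adjusted p = 0.205), nor without replicate 2 of the regular group. With DMSO, MRPS31 had a log2 fold change of 0.12 ± 0.09 (SE, adjusted p = 0.253). MRPS2, MRPL54 and MRPL2 were among the 5 largest rises with DMSO, at 0.51, 0.48 and 0.32, and in untreated cells they were at 0.16, 0.04 and 0.09 and did not pass the test. The DMSO rise of MRPL2 did not hold when scaled to reads on listed genes, at 0.10 (adjusted p = 0.282).

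**Figure D2:**
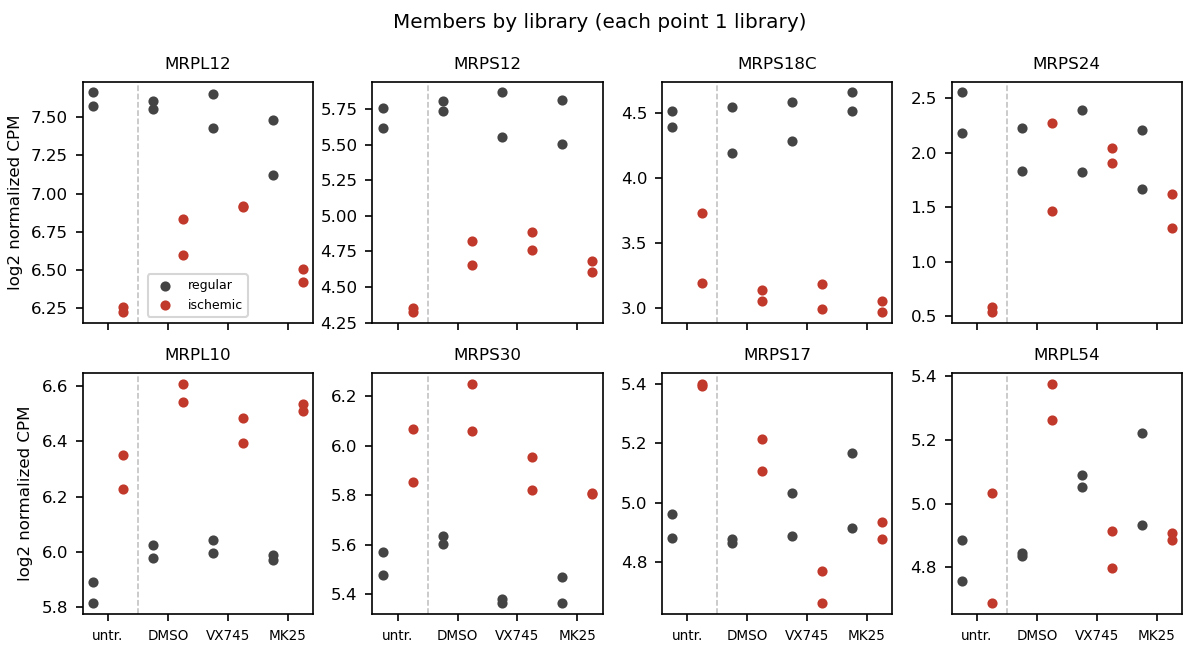
Log2 normalized CPM of 8 members in each library, with grey points for regular and red points for ischemic libraries; groups stand in the order untreated, DMSO, VX745 and MK25, and the dashed line parts the experiments. MRPL12, MRPS12 and MRPS18C were lower in every ischemic library of a pair of groups, MRPL10 and MRPS30 were higher in every one, and MRPL54 was higher in ischemic than in regular culture with DMSO but lower with VX745.

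The paralogs MRPS18A, MRPS18B and MRPS18C descend from the gene for a single bacterial protein. Of those analysed, MRPS18C fell (above) and MRPS18A did not fall in either experiment. MRPS18A was at 5.73 and 5.62 in regular and 5.81 and 5.92 log2 CPM in ischemic untreated libraries, and it rose by 0.19 ± 0.08 (SE, adjusted p = 0.0487). With DMSO it rose by 0.26 ± 0.08 (SE, adjusted p = 0.00889). Neither call held when libraries were scaled to reads on listed genes, which gave 0.02 and 0.04. Of its exon bases, 60.6% lie opposite those of RSPH9.

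Per kilobase of the annotated transcript, members differed widely in level. In regular untreated cells MRPL12 (7.61), MRPL51 (7.19) and MRPL53 (7.09) were highest in log2 CPM per kilobase, and MRPL42 (1.45), MRPS33 (2.62) and MRPL50 (2.89) were lowest. These positions rest on the transcript chosen, which is 15557 bases long for MRPL42, 4210 for MRPS33 and 3336 for MRPL50, against a median of 1221 over the members. MRPL53 shares 99.2% of its exon bases with CCDC142. The median was 5.51 for the large and 4.77 for the small subunit. MRPL51 fell by 0.32 ± 0.07 (SE, adjusted p = 0.00145) in untreated cells, and MRPL42 and MRPL50 fell by 0.51 ± 0.09 (SE, adjusted p = 2.46e-04) and fell by 0.66 ± 0.10 (SE, adjusted p = 7.77e-05). The log2 fold change of MRPS33 was -0.20 ± 0.12 (SE, adjusted p = 0.139).

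Large and small subunit genes were then compared by symbol. In untreated cells 40 of 47 large subunit genes were lower and 1 was higher. Of 27 small subunit genes, 17 were lower and 5 were higher, and the medians of large and small were -0.49 and -0.35. The lower shares were 85.1% and 63.0% and the higher shares 2.13% and 18.5%, against 35.2% of all genes in each direction. With DMSO 32 large subunit genes were lower and 4 higher, and 13 small subunit genes were lower and 7 higher. The medians were -0.35 and -0.15. The lower shares there were 68.1% and 48.1%, against 35.2% of all genes. The higher shares were 8.51% and 25.9%, against 34.4%. The mean level of the large subunit genes exceeded that of the small subunit genes by 0.22 log2 units in each of the 2 regular untreated libraries and by 0.08 and 0.12 in the ischemic ones. In the second experiment this difference was 0.21 to 0.27 over the 6 regular and 0.13 to 0.20 over the 6 ischemic libraries, without overlap.

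This separation of the libraries depended on the names of 2 genes. MRPS18A and MRPS30 carry small subunit names, but in the assembled particle both are found in the large subunit. With these 2 counted as large, the difference was 0.21 in both regular untreated libraries and 0.15 and 0.21 in the ischemic ones, and 0.20 to 0.25 in the regular and 0.18 to 0.27 in the ischemic libraries of the second experiment. The ranges of regular and ischemic libraries then overlapped in both experiments. The large minus small difference of the medians moved from -0.14 to -0.12 in untreated and from -0.20 to -0.17 in DMSO-treated cells. By symbol, it ran from -0.22 to -0.12 in untreated cells with 1 library left out, where it was -0.22 without replicate 2 of the ischemic group, and from -0.26 to -0.16 with DMSO. No test was run over the members, which are not replicates.

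**Figure D3:**
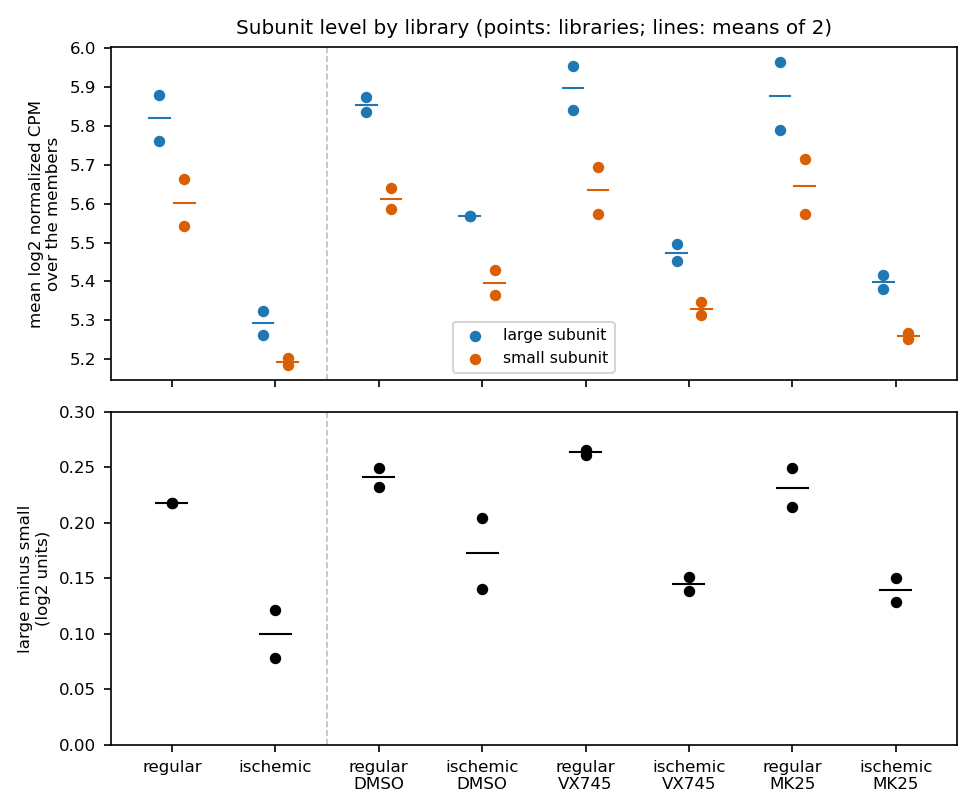
Mean log2 normalized CPM over the 47 large (blue) and 27 small (orange) subunit genes in each library (upper panel), and their difference (lower panel); points are libraries, lines are means of 2 libraries, and the dashed line parts the experiments. Both subunits were lower in every ischemic library than in the regular libraries, and with subunits taken by symbol the difference was 0.21 to 0.27 in regular and 0.13 to 0.20 in ischemic libraries of the second experiment.

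The ischemic shift was also present in cells that received an inhibitor. With VX745, 54 members were lower and 3 higher in ischemic than in regular culture, against 32.6% and 34.0% of all genes, with a median of -0.33. With MK25, 56 members were lower and 4 higher, against 33.7% and 33.5%, with a median of -0.45. Over the 4 comparisons of ischemic with regular culture, which share no library, 43 members were called lower in all 4, which is 58.1% against 22.0% of the genes in both tables. These were 30 large and 13 small subunit genes. MRPL10 and MRPS30 were the 2 members called higher in all 4, which is 2.70% against 23.0% of genes.

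MRPS18C showed the largest fall of the members with both inhibitors, and it fell by 1.35 ± 0.12 (SE, adjusted p = 4.02e-08) with VX745 and fell by 1.57 ± 0.12 (SE, adjusted p = 5.67e-09) with MK25. MRPS28 followed, and it fell by 0.96 ± 0.10 (SE, adjusted p = 2.39e-07) with VX745 and fell by 1.04 ± 0.10 (SE, adjusted p = 8.80e-08) with MK25. With VX745, MRPL32, MRPL27 and MRPL50 had log2 fold changes of -0.96, -0.94 and -0.92. With MK25, MRPS12, MRPL36 and MRPL20 had log2 fold changes of -1.01, -0.95 and -0.93. MRPL10 rose by 0.42 ± 0.06 (SE, adjusted p = 4.58e-06) with VX745 and rose by 0.54 ± 0.06 (SE, adjusted p = 1.97e-07) with MK25, and MRPS30 rose by 0.51 ± 0.07 (SE, adjusted p = 5.93e-06) and rose by 0.39 ± 0.07 (SE, adjusted p = 1.15e-04).

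**Figure D4:**
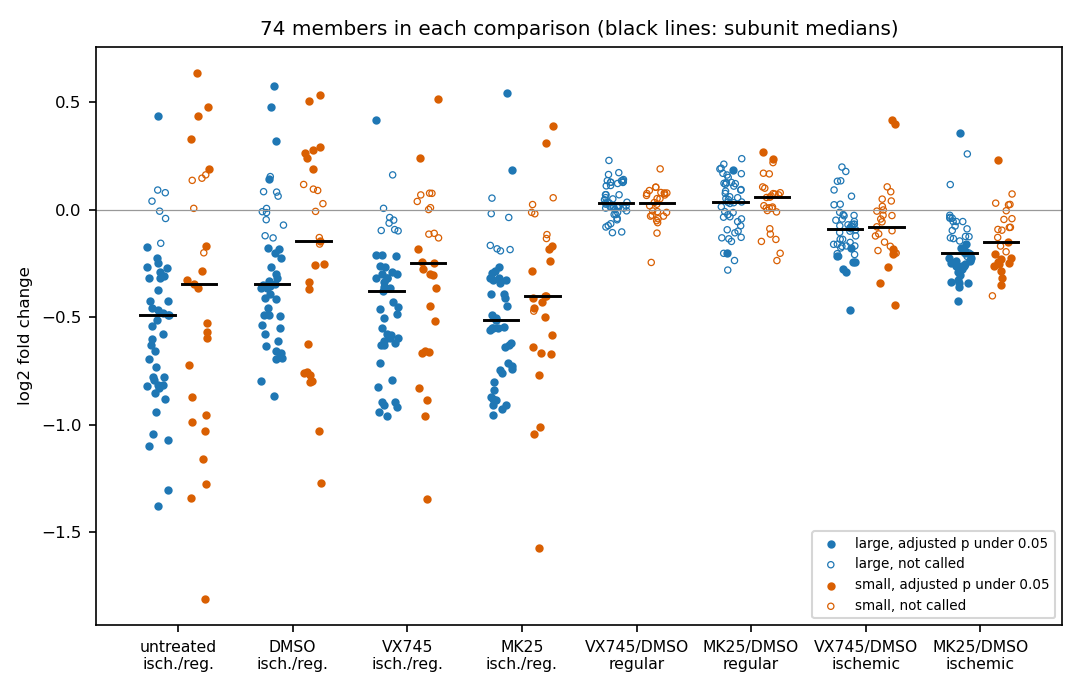
Log2 fold change of the 74 members in the 8 comparisons, with blue points for large and orange points for small subunit genes, filled where the adjusted p was under 0.05; black lines are subunit medians. The 4 comparisons of ischemic (isch.) with regular (reg.) culture lie mostly below 0, those of an inhibitor with DMSO in regular culture lie around 0 (medians of 0.03 and 0.04), and that of MK25 with DMSO in ischemic culture has a median of -0.20.

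The inhibitors were then compared with DMSO within each condition. The comparisons of VX745 and of MK25 share the DMSO libraries. Under the regular condition VX745 changed 0 of 74 members by limma with adjusted p, and by voom also 0, against 0.178% of all genes higher and 0.157% lower, and 3 members had an unadjusted p under 0.05. The lowest value was that of MRPS30, -0.25 ± 0.07 (SE, adjusted p = 0.132), and the highest that of MRPL54, 0.23 ± 0.09 (SE, adjusted p = 0.225). MK25 raised 3 members, MRPS33, MRPS21 and MRPL49, and lowered 1, MRPL38, under the regular condition, against 7.00% and 5.21% of all genes. MRPS33 rose by 0.27 ± 0.08 (SE, adjusted p = 0.0467), and MRPS21, the counterpart of a small bacterial protein, rose by 0.24 ± 0.06 (SE, adjusted p = 0.0168). The adjusted p of MRPS33 was 0.0563 when scaled to reads on listed genes. This count depended on single libraries, being 0 higher and 6 lower without replicate 1 of the MK25 group and 7 higher and 0 lower without its replicate 2.

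In ischemic cells MK25 gave lower levels of mitochondrial ribosomal protein genes than DMSO in the deposited scaling. Of the members, 38 were lower and 2 higher, against 22.0% and 19.8% of all genes, with a median of -0.20. The lowest values among those called were those of MRPL54, MRPL21, MRPS30 and MRPL1, and the higher ones were MRPL28, at 0.36 ± 0.09 (SE, adjusted p = 0.00297), and MRPS34, at 0.23 ± 0.09 (SE, adjusted p = 0.0438). MRPL54, a mitochondria-specific large subunit protein, was at 5.38 and 5.26 log2 CPM in the DMSO and 4.88 and 4.91 in the MK25 libraries, and it fell by 0.42 ± 0.09 (SE, adjusted p = 8.19e-04). MRPL21 and MRPS30 fell by 0.36 ± 0.07 (SE, adjusted p = 8.93e-04) and fell by 0.35 ± 0.07 (SE, adjusted p = 9.08e-04). Scaled to reads on listed genes, MRPL1 was at -0.21 (adjusted p = 0.0953) and lost its call, whereas MRPL54, MRPL21 and MRPS30 kept theirs. Large subunit genes were lower in 27 of 47 cases (57.4%) and small subunit genes in 11 of 27 (40.7%), against 22.0% of all genes.

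These calls moved with the scaling of the libraries. Scaled to reads on listed genes, without the composition factors in the deposited values, 5 members were lower and 5 higher with MK25, and the median of all genes was 0.13 and that of the members -0.07. Of all genes, 3080 were lower and 2770 higher in the deposited scaling and 1517 and 4554 in this other one. As a share of reads on listed genes, the members took 0.353% and 0.359% with MK25 and 0.365% and 0.367% with DMSO. With trends on transcript GC content and length removed, 25 members were lower and 5 higher, and with 1 library left out 18 to 24 were lower. Cytosolic ribosomal protein genes were lower in the same comparison in 75 of 82 cases with a median of -0.37, which was -0.24 when scaled to reads on listed genes.

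The same comparison was made for VX745 in ischemic cells. Against DMSO 12 members were lower and 2 higher, against 14.9% and 14.0% of all genes, so that the share of lower members was near the background, and the median was -0.09. Scaled to reads on listed genes, 3 were lower and 7 higher, and the median turned to 0.03, against 0.12 for all genes, of which 722 were lower and 3617 higher in place of 2093 and 1958. MRPL54 fell by 0.46 ± 0.09 (SE, adjusted p = 7.39e-04), and MRPS17, the counterpart of a bacterial small subunit protein, fell by 0.45 ± 0.09 (SE, adjusted p = 0.00112). MRPS6 and MRPL47 fell by 0.34 ± 0.07 (SE, adjusted p = 0.00132) and fell by 0.29 ± 0.07 (SE, adjusted p = 0.00681), and MRPL47 was at -0.17 (adjusted p = 0.0934) when scaled to reads on listed genes. The 2 members called higher were MRPS34, which rose by 0.42 ± 0.09 (SE, adjusted p = 0.00223), and MRPS26, which rose by 0.40 ± 0.08 (SE, adjusted p = 0.00199). The count of lower members ranged from 3 to 8 with 1 library left out, and it was 25 when the fit held only the 2 groups.

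The interaction of each inhibitor with the condition tests whether its effect differed between ischemic and regular culture. For VX745, 6 of 74 members had such a difference, against 11.8% of all genes, and for MK25, 23 did, against 24.4%. The 23 comprised 22 members with a lower value and 1, MRPS34, with a higher one. MRPL54 had the most negative interaction for both inhibitors, at -0.69 ± 0.12 (SE, adjusted p = 0.00213) for VX745 and -0.66 ± 0.12 (SE, adjusted p = 8.79e-04) for MK25. Its level rose from 4.85 and 4.84 in regular to 5.38 and 5.26 in ischemic DMSO libraries, whereas with VX745 it was 5.09 and 5.05 in regular and 4.80 and 4.91 in ischemic libraries. MRPS17 showed the same order, with interactions of -0.53 ± 0.12 (SE, adjusted p = 0.0103) and -0.42 ± 0.12 (SE, adjusted p = 0.0178). The MRPS17 interaction with MK25 was -0.29 (adjusted p = 0.0938) when scaled to reads on listed genes. The count for VX745 was 1 to 9 with 1 library left out and 1 without the variance trend, being 1 without replicate 1 of ischemic VX745, 2 without replicate 1 of ischemic DMSO and 3 without replicate 1 of regular VX745. The count for MK25 was 8 to 31 with 1 library left out and 10 when scaled to reads on listed genes. These 10 were MRPL1, MRPL49, MRPL54 and MRPS21 with negative values and MRPL28, MRPL34, MRPL38, MRPS25, MRPS26 and MRPS34 with positive ones. The mostly negative direction of the MK25 interactions thus did not hold in that scaling.

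Other genes that make or use the mitochondrial ribosome were counted for comparison. Of the 5 mitochondrial ribosomal proteins with other names, 4 were lower and 0 higher in ischemic untreated cells and 3 were lower and 1 higher with DMSO. Of all genes, 35.2% were lower in each experiment, and 35.2% and 34.4% were higher. AURKAIP1, a small subunit protein, fell by 1.25 ± 0.08 (SE, adjusted p = 3.75e-08) and fell by 0.64 ± 0.09 (SE, adjusted p = 1.02e-05), and CHCHD1 fell by 0.61 ± 0.10 (SE, adjusted p = 2.10e-04) and fell by 0.29 ± 0.09 (SE, adjusted p = 0.00794). DAP3, a small subunit protein that binds GTP, fell by 0.16 ± 0.07 (SE, adjusted p = 0.0434) in untreated cells but rose by 0.28 ± 0.06 (SE, adjusted p = 3.77e-04) with DMSO. In the scaling to reads on listed genes, DAP3 was at 0.06 (adjusted p = 0.372) with DMSO, so that this rise did not hold.

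Of 32 measured genes for assembly of the mitochondrial ribosome and modification of its RNA, 19 were lower and 4 higher in untreated cells and 19 were lower and 7 higher with DMSO, with medians of -0.38 and -0.34. The lower share was 59.4% in each, against 35.2% of all genes. The higher shares were 12.5% and 21.9%, against 35.2% and 34.4%. MPV17L2, a factor needed for ribosome assembly, fell by 1.59 ± 0.12 (SE, adjusted p = 1.29e-07) and fell by 0.89 ± 0.11 (SE, adjusted p = 1.03e-06), whereas TFB1M, which methylates the small subunit RNA, rose by 0.62 ± 0.11 (SE, adjusted p = 2.18e-04) and rose by 0.52 ± 0.11 (SE, adjusted p = 3.75e-04). Of 18 translation factors, 10 were lower and 3 higher in untreated cells and 9 were lower and 3 higher with DMSO. The lower shares were 55.6% and 50%, and the higher share was 16.7% in each, against the same shares of all genes. MTFMT, the enzyme that formylates the initiator tRNA, fell by 1.45 ± 0.14 (SE, adjusted p = 2.01e-06) and fell by 1.07 ± 0.11 (SE, adjusted p = 8.66e-08). Of 21 mitochondrial tRNA synthetase genes, 9 were lower in each experiment, and 2 and 5 were higher. Of the 21, 42.9% were thus lower in each, near the 35.2% of all genes, and 9.52% and 23.8% were higher. Among them MARS2 fell by 1.35 ± 0.11 (SE, adjusted p = 3.43e-07) and fell by 1.62 ± 0.10 (SE, adjusted p = 1.07e-10), and GARS1, which serves the cytosol and mitochondria, rose by 2.01 ± 0.07 (SE, adjusted p = 1.01e-10) and rose by 2.10 ± 0.06 (SE, adjusted p = 5.39e-15).

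Regulators of mitochondrial DNA transcription and biogenesis went both ways. Of 15 genes, 7 were lower and 3 higher in untreated cells, and 9 were lower and 3 higher with DMSO. The lower shares were 46.7% and 60%, against 35.2% of all genes in each. The higher share was 20% in each, against 35.2% and 34.4%. PPARGC1B, a coactivator of mitochondrial biogenesis, fell by 2.78 ± 0.22 (SE, adjusted p = 2.92e-07) and fell by 2.60 ± 0.22 (SE, adjusted p = 8.31e-09), and MYC, a transcription factor that also drives ribosome genes, rose by 1.75 ± 0.08 (SE, adjusted p = 1.25e-09) and rose by 1.93 ± 0.08 (SE, adjusted p = 7.64e-13). Among the 15 genes of mitochondrial DNA, 9 were lower and 4 higher in untreated cells, and 8 were lower and 5 higher with DMSO. Their lower shares were 60% and 53.3% and their higher shares 26.7% and 33.3%, against the same shares of all genes. Of the RNAs of the mitochondrial ribosome itself, MT-RNR2 (large subunit) rose by 0.84 ± 0.09 (SE, adjusted p = 2.26e-06) and rose by 0.64 ± 0.11 (SE, adjusted p = 6.93e-05), and MT-RNR1 (small subunit) rose by 0.38 ± 0.07 (SE, adjusted p = 3.80e-04) in untreated cells and was at 0.07 ± 0.13 (SE, adjusted p = 0.626) with DMSO. MT-RNR1 was named after its values were seen. Scaled to reads on listed genes, MT-RNR1 was at -0.15 (adjusted p = 0.301) and MT-RNR2 at 0.42 (adjusted p = 0.00293) with DMSO. The libraries were made with a kit for mRNA, and how fully it captured these ribosomal RNAs was not tested.

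Cytosolic ribosomal proteins serve the translation of nuclear messages, and many of their genes have near-identical copies, so that single values are uncertain. Of 81 measured in the untreated comparison, 30 rose (37.0%, against 35.2% of all genes) and 10 fell (12.3%, against 35.2%), the median being 0.13. Of 82 with DMSO 68 rose (82.9%, against 34.4%) and 5 fell, the median being 0.48. Scaled to reads on listed genes, these medians were -0.04 and 0.25, so that the untreated one turned negative. Nuclear-encoded respiratory chain subunits were lower in 64 of 77 cases and higher in 2 in untreated cells, with a median of -0.47, and lower in 34 and higher in 8 with DMSO, with a median of -0.14. Their lower shares were 83.1% and 44.2%, against 35.2% of all genes in each. Their higher shares were 2.60% and 10.4%, against 35.2% and 34.4%. ATP5MC1, a subunit of the ATP synthase ring, fell by 1.68 ± 0.08 (SE, adjusted p = 2.85e-09) and fell by 1.13 ± 0.07 (SE, adjusted p = 2.73e-10), and COX7A2L, a factor of respiratory supercomplexes, rose by 0.87 ± 0.07 (SE, adjusted p = 3.37e-07) and rose by 0.77 ± 0.07 (SE, adjusted p = 2.56e-08).

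**Figure D5:**
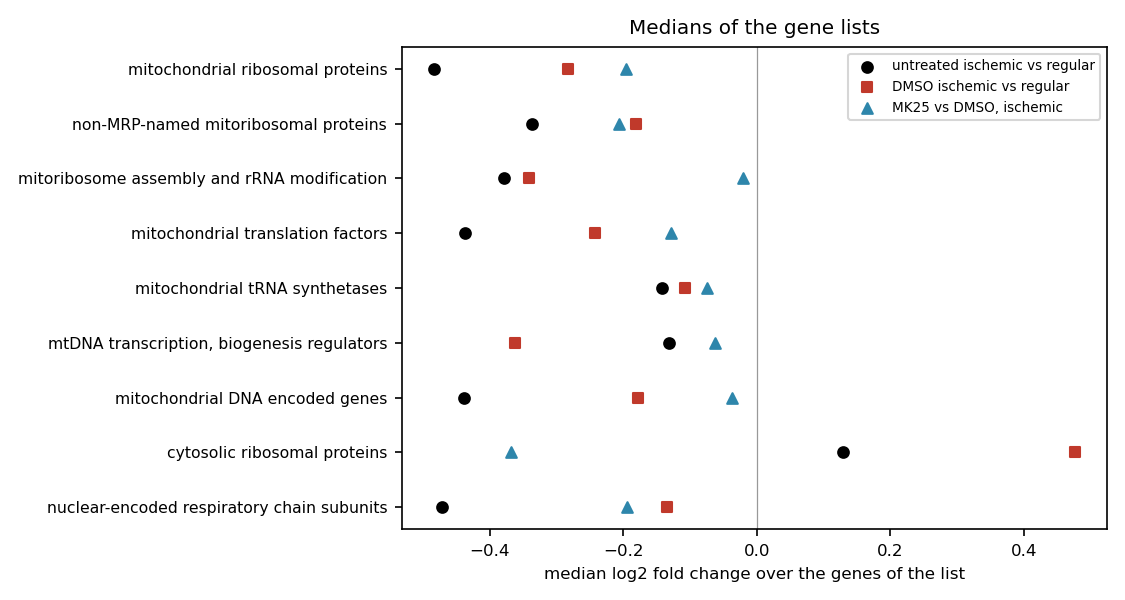
Median log2 fold change over the measured genes of each list (x axis) in ischemic against regular culture of untreated cells (black circles) and DMSO-treated cells (red squares), and for MK25 against DMSO in ischemic culture (blue triangles). Mitochondrial ribosomal proteins had medians of -0.48, -0.28 and -0.20. Cytosolic ribosomal proteins had medians of 0.13 (negative when scaled to reads on listed genes), 0.48 and -0.37. The MK25 medians of these lists were smaller in size when scaled to reads on listed genes.

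Sequence features around the starts of the members were described next. A gene transcribed the other way starts within 1000 bases of the start of 25 of 74 members (33.8%), against 1627 of 12580 protein-coding genes of the second experiment (12.9%). In untreated cells 23 of these neighbors were tested, of which 13 were lower and 4 higher, against 35.2% of all genes in each direction, and their median was -0.33, against -0.48 for the members beside them. With DMSO 24 were tested, of which 10 were lower and 4 higher, against 35.2% and 34.4% of all genes, and the medians were -0.12 and -0.33. MRPL46 (large subunit) and MRPS11 (small subunit) start 320 bases apart on chromosome 15 and face away from each other. Each is the neighbor of the other, so both are counted among the lower neighbors above as well as among the members. The neighbor counts and medians are therefore not of other genes only. MRPS11 fell by 1.03 ± 0.08 (SE, adjusted p = 1.53e-07) in untreated and fell by 0.63 ± 0.08 (SE, adjusted p = 1.53e-06) in DMSO-treated cells, and MRPL46 fell by 0.49 ± 0.10 (SE, adjusted p = 7.43e-04) and fell by 0.32 ± 0.08 (SE, adjusted p = 0.00159). MRPS12 fell in both (above), whereas its neighbor SARS2 was at -0.41 ± 0.10 (SE, adjusted p = 0.00195) and 0.08 ± 0.09 (SE, adjusted p = 0.403) in untreated and DMSO-treated cells.

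Letters of known promoter motifs were counted on both strands in the window from 250 bases before to 50 after the start, which RefSeq gave for 67 members and 11087 genes of the second experiment. The ETS motif CCGGAAG was in 29 members (43.3%) against 18.8% of all these genes, and the YY1 motif AAGATGGCG was in 12 (17.9%) against 3.89%. The NRF1 motif GCGCANGCG was in 12 (17.9%) against 14.4%, and CCAAT was in 20 (29.9%) against 36.8%. The SP1 motif GGGCGG was in 41 (61.2%) against 68.9%, the letters TATAAA in 2 (2.99%) against 5.77%, and the E-box CACGTG in 5 (7.46%) against 10.0%. The median log2 fold change in untreated cells was -0.46 for members with the ETS motif and -0.52 for those without it, and with DMSO these were -0.18 and -0.33. For the SP1 motif the medians with and without it were -0.37 and -0.62 in untreated cells and -0.18 and -0.36 with DMSO, and for CCAAT they were -0.59 and -0.46 and then -0.41 and -0.25. The other 4 motifs were each in 12 members or fewer. None of these differences was tested. A match of letters is a description and not a binding site. MRPL2, MRPL10, MRPL13, MRPL15, MRPL21, MRPL35 and MRPS28 were not in the promoter table.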

How the data were processed

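RNA from LN229 cells was sequenced in 16 libraries made with the SMART-Seq mRNA HT and Nextera XT kits. Per the paper's methods, trimming, alignment with HISAT2 (GRCh38) and edgeR were run in Galaxy by the authors. The deposited values are log2 normalized CPM, 1 table per experiment, normalized separately. Whether counting used strand is not given in the sources used here. Undoing the logarithm, 100% of values lay on whole read counts with a constant offset of 1.49 to 2.62 reads (tolerance 0.05 reads), which gave 20122017 to 37562668 reads per library. Counting floors of 3 reads then lie at -2.71 to -2.16 log2 CPM and cover counting error only.

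The deposited log2 values were used as they are. Differences were tested with limma 3.58.1 in R 4.3.3 (1 mean per group, empirical Bayes with a variance trend, two-sided), separately on the 4 libraries of the first experiment and on all 12 of the second, and adjusted by Benjamini-Hochberg over all 13559 or 14024 genes. The fit was tested on simulated data. Symbols were matched for 99.4% and 99.3% of gene identifiers to RefSeq (GRCh38.p14), transcripts came from GENCODE 44 (GRCh38), and no column was left unused.

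Named members are the 5 highest and 5 lowest in each comparison (for interactions, those called), the 3 most and 3 least abundant per kilobase, MRPS18A, MRPS18B, MRPS18C, MRPS30 and MRPL12, and any with 3 reads or fewer in a library, which held for 0 members. Where a text states a member beyond these, it was named to account for a small count, a shared promoter or a sequence. From the other lists, the 2 highest and 2 lowest were eligible. The members and lists were chosen with earlier results of these data known. Alternatives were a minimum mean of 1 CPM, median centring, quantile normalization, no variance trend, a replicate block, voom on recovered reads, leaving out each library, and only the groups compared. Removal of GC content and length trends, scaling to reads on listed genes, and counting MRPS18A and MRPS30 as large were added after seeing the data.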

Additional observations from a re-analysis of the deposited data

Results flagged for a closer look

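The effect of an inhibitor differed between ischemic and regular culture, by the interaction term in limma, for 6 of 74 members with VX745 and 23 with MK25. Of all genes, 11.8% and 24.4% had such a difference, so that the VX745 share was below and the MK25 share near that of genes at large. Values are interactions on the log2 scale, where a negative value means that the inhibitor gave a lower level in ischemic relative to regular culture than DMSO did.

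For VX745 these were MRPL54 (-0.69), MRPS17 (-0.53), MRPS21 (-0.37), MRPS6 (-0.33), MRPL49 (-0.25) and MRPS26 (0.51). MRPS26 was the 1 member with a positive value. When scaled to reads on listed genes, MRPS6 was at -0.22 (adjusted p = 0.146) and MRPL49 at -0.14 (adjusted p = 0.227), past the threshold no longer.

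For MK25 the more negative ones were MRPL54 (-0.66), MRPL1 (-0.55), MRPS21 (-0.55), MRPS17 (-0.42), MRPL33 (-0.42), MRPL53 (-0.41), MRPL50 (-0.36), MRPL15 (-0.35), MRPL49 (-0.35) and MRPL21 (-0.35). The remaining negative ones were MRPL36 (-0.34), MRPS6 (-0.33), MRPL18 (-0.33), MRPL51 (-0.32), MRPL47 (-0.31), MRPS35 (-0.30), MRPS23 (-0.30), MRPL24 (-0.30), MRPL3 (-0.27), MRPL30 (-0.26), MRPS16 (-0.26) and MRPS5 (-0.26). MRPS34 had a positive value (0.37). When scaled to reads on listed genes, MRPL54, MRPL1, MRPS21, MRPL49 and MRPS34 kept their call, and the other members named here for MK25 did not. MRPL54, MRPS17, MRPS21, MRPS6 and MRPL49 were in both sets, and since both interactions share the DMSO libraries this overlap is no independent evidence.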

How the results depend on the processing

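The counts of members lower and higher in the 4 comparisons of ischemic with regular culture stayed within 1.5 times under every alternative run, except that 4 in place of 11 were higher with DMSO when scaled to reads on listed genes and 6 in place of 3 with VX745 when GC content and length trends were removed. With 1 library left out, 4 to 9 members were higher and 49 to 56 lower in untreated cells, 8 to 11 and 39 to 44 with DMSO, 2 to 3 and 44 to 53 with VX745, and 3 to 4 and 51 to 62 with MK25. Under the regular condition VX745 lowered 1 member with GC and length trends removed, and MK25 lowered 11. MK25 changed 0 higher and 0 lower there without the variance trend or with only the groups compared, and 0 to 7 higher and 0 to 6 lower with 1 library left out. Leaving out replicate 2 of regular DMSO gave 1 higher and 0 lower.

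In ischemic cells VX745 lowered 7 members without the variance trend or after quantile normalization, 25 (with 4 higher) with only the groups compared, 3 (with 7 higher) when scaled to listed reads, and 3 to 8 (with 2 higher) with 1 library left out. That was 3 without replicate 1 of ischemic VX745 and 7 without either ischemic DMSO library. MK25 lowered 25 members with GC and length trends removed (5 higher), without the variance trend (1 higher) or after quantile normalization, 5 (5 higher) when scaled to listed reads, and 18 to 24 (1 to 3 higher) with 1 library left out. That was 18 and 24 without replicates 2 and 1 of ischemic MK25 and 23 without either ischemic DMSO library.

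The VX745 interaction called 1 member without the variance trend and 1 to 9 with 1 library left out: 1 without replicate 1 of ischemic VX745, 2 without replicate 1 of ischemic DMSO and 3 without replicate 1 of regular VX745. The MK25 interaction called 9 with GC and length trends removed, 6 without the variance trend, 12 after quantile normalization, 10 scaled to listed reads and 8 to 31 with 1 library left out. It was 8 without replicate 1 of ischemic DMSO, 9 without replicate 1 of regular MK25, 12 without replicate 2 of regular DMSO, and 14 and 13 without replicates 1 and 2 of ischemic MK25. The MRPL33 interaction with MK25 turned from -0.42 to 0.055 with GC and length trends removed. Of 2218 values for 163 results on single members, 1869 kept their call, 301 lost it, 47 gained it and 1 reversed. The cause of these changes was not tested, but leaving out a library or groups also leaves fewer libraries.

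The labels do not say whether replicate numbers pair the samples, and over all genes little pairing was seen. For the members, the mean level of the large subunit genes was higher in replicate 1 than in replicate 2 of every regular group. In the ischemic groups it went either way. Deviations of same-numbered libraries correlated at 0.17 in the 1 pair of groups of the first experiment and at -0.12 to 0.14 over 15 in the second, 1 of them above 0.1. With the replicate block, 57 members were lower and 5 higher in untreated cells, 45 and 11 with DMSO, 54 and 3 with VX745, and 57 and 3 with MK25. Against DMSO in ischemic cells, VX745 then gave 13 lower and 2 higher and MK25 38 and 2, and the interactions called 7 and 24. With 2 libraries a group, differences smaller than the spread between libraries could not be seen.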
